A study of Rattus norvegicus with 18 samples.

Results

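The miR-26 family was followed in small RNA libraries of cervical dorsal root ganglia (DRG) from 18 adult rats. MicroRNAs (miRNAs) are short RNAs that repress messenger RNAs, and each is cut from 1 arm, 5p or 3p, of a hairpin precursor. The members were all rows of the deposited count table named rno-miR-26a or rno-miR-26b, of either arm, which gave 4 of 753 miRNAs: rno-miR-26a-5p, rno-miR-26a-3p, rno-miR-26b-5p and rno-miR-26b-3p. Of these 4, rno-miR-26b-5p and rno-miR-26b-3p exceeded 10 counts in 6 libraries or more and were tested together with the other miRNAs that did so (373 in all). The rule goes by row names and uses no measured value, although it was written with earlier results of these data known.

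All rats were of the Lister hooded strain, and 3 groups of 6 were compared. Naïve rats were unoperated and received no vector. Rats of the bPYX+GFP group had both corticospinal tracts cut in the medullary pyramids (bPYX) and then, on the following day, an adeno-associated vector that expresses green fluorescent protein (AAV1-CMV-EGFP) put into the forelimb flexor muscles of 1 side. Rats of the bPYX+NT3 group had the same lesion and AAV1-CMV-NT3, which encodes human neurotrophin-3, a growth factor for proprioceptive sensory neurons. The CMV promoter is not restricted to 1 cell type, and no lesioned group went without a vector. Ganglia of levels C6 to C8 were taken 10 weeks after injury from the treated side and pooled within each rat, so that each rat gave 1 library of whole ganglia with neurons and glia together. In such samples, fewer cells of a type and less RNA per cell cannot be told apart.

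The genes of the miR-26 family lie in introns of genes of the CTDSP group, which encode small phosphatases of the RNA polymerase II tail. These phosphatases work with the REST complex, which keeps neuronal genes silent outside neurons. In the RefSeq annotation of assembly GRCr8, Mir26a lies within Ctdspl and Mir26b within Ctdsp1. This assembly is not the build to which the reads were aligned (Rnor_5.0), and its coordinates are not given. Among the messenger RNAs known as targets of miR-26 in other systems are those for the histone methyltransferase Ezh2 and the host product Ctdsp2. In mouse and human a further miR-26a gene lies within Ctdsp2 and yields the same 5p sequence.

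The mature sequences are shown to mark where they differ between members. They come from RefSeq (GRCr8), are given 5′ to 3′, and have the seed (bases 2 to 8), the part that pairs with targets, in capitals.
rno-miR-26a-5p: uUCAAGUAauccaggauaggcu
rno-miR-26b-5p: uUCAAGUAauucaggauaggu
rno-miR-26a-3p: cCUAUUCUugguuacuugcac
rno-miR-26b-3p: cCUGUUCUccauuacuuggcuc

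The 5p arms shared the seed UCAAGUA with each other and with no other miRNA of the table that had a reference sequence. Counted from 1 at the 5′ end, with the base of rno-miR-26a-5p first, they differed by C11U and C21U over 21 compared bases, an identity of 90.5%. No other mature sequence among 693 lay within 2 differences of either over the first 20 bases. The 3p arms were less alike, with an identity of 66.7% over 21 bases. They differed by 7 substitutions from rno-miR-26a-3p to rno-miR-26b-3p (A4G, U9C, G10C, G11A, C19G, A20C and C21U), of which A4G lies in the seed. The 3p arms of the family therefore had different seeds.

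The hairpins are shown to place both arms in their precursors, with the mature sequences in capitals (RefSeq, GRCr8, 5′ to 3′).
Mir26a: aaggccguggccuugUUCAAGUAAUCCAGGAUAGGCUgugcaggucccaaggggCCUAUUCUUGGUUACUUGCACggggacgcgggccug
Mir26b: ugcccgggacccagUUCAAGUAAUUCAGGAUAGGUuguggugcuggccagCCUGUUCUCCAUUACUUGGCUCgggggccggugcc
In Mir26a, of 90 bases, the 5p arm took positions 16 to 37 and the 3p arm positions 55 to 75. In Mir26b, of 85 bases, the arms took positions 15 to 35 and 51 to 72. Each mature sequence was found in only 1 of the hairpins listed in this reference.

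Libraries held 4.70 ± 0.663 M counts of miRNAs (SD, n = 18; range 3.88 to 6.92 M, with M for mega). The read counter had set aside a further 31.4 ± 1.88% of all reads, 3.17 to 6.03 M per library, for low alignment quality. Such a quality can be given to reads that fit several places of the genome equally well. These reads were not split by cause. Levels are given as counts per M miRNA counts after TMM scaling (CPM), and 3 counts in a library, the limit below which absence cannot be claimed, corresponded to 0.476 to 0.763 CPM. Reads were not labelled by molecule, and this limit covers counting error only. Levels of different miRNAs compare reads, not molecules. The 18 labels are of 18 rats, and p-values measure the spread between rats.

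Nearly all deposited counts of the family were of miR-26b. rno-miR-26b-5p had 15061 to 33153 counts per library and 397258 in all, which was between 99.5% and 99.8% of the counts of the 4 members in every library. rno-miR-26b-3p, cut from the other arm of the same hairpin, had 39 to 98 counts per library and 1278 in all. rno-miR-26a-5p had 0 to 10 counts per library and 49 in all, and rno-miR-26a-3p had 0 to 7 counts and 42 in all. Although the 5p arms differ at only 2 compared bases, the deposited counts of rno-miR-26b-5p were 8107 times those of rno-miR-26a-5p over the 18 libraries. For the 3p arms the ratio was 30.4. The order of the 4 members by mean CPM was rno-miR-26b-5p, rno-miR-26b-3p, rno-miR-26a-5p and rno-miR-26a-3p. The last pair, at 0.588 ± 0.537 and 0.488 ± 0.377 CPM (SD, n = 18), did not differ beyond their spread.

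**Figure D1:**
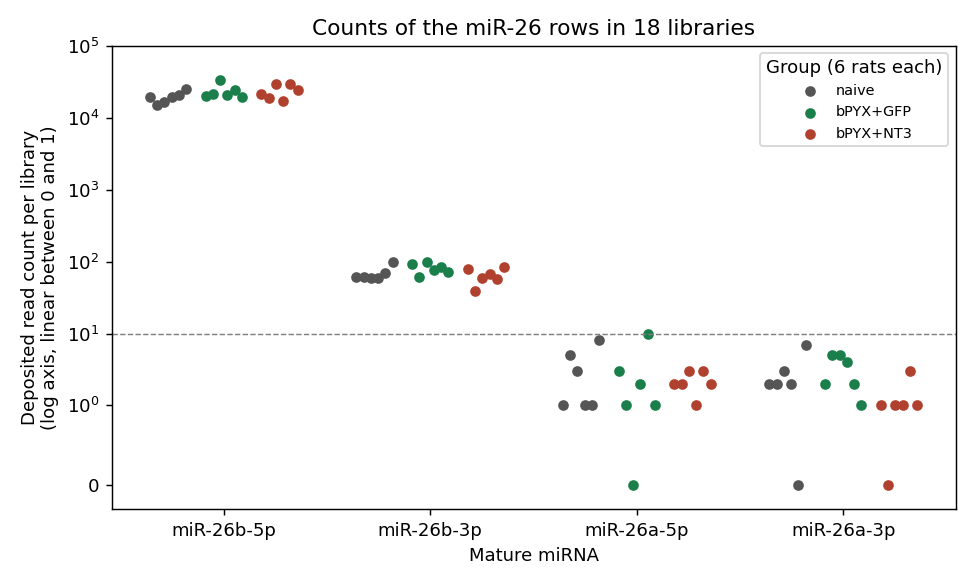
Deposited read counts of the 4 miR-26 rows in each library (vertical axis, logarithmic above 1 and linear from 0 to 1; dots, 1 per rat, coloured by group, 6 rats each; dashed line, 10 counts). Every library has at least 15061 counts of miR-26b-5p and 39 of miR-26b-3p, while both miR-26a rows stay at 10 counts or fewer.

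rno-miR-26b-5p was among the abundant miRNAs of the ganglia. Its mean level was 4680 ± 680 CPM (SD, n = 18), or 0.471% of all miRNA counts, rank 27 of 753. The rows next to it were rno-miR-23a-3p at 5107 ± 604 CPM and rno-miR-328a-3p at 4691 ± 691 CPM above it, and rno-miR-379-5p at 4644 ± 564 CPM and rno-miR-96-5p, a miRNA of sensory neurons, at 4282 ± 494 CPM below it. None of these 4 differed from it by more than the SD between rats. rno-miR-26b-3p had a mean level of 15.2 ± 3.02 CPM, rank 271. Its neighbours, rno-miR-873-5p and rno-miR-125a-3p at 15.6 CPM each, rno-miR-1843b-5p at 15.2 CPM and rno-miR-673-3p at 15.0 CPM, were also within its SD. Both miR-26a rows, at ranks 445 and 457, had means at or about the level of 3 counts per library.

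The comparison of bPYX+GFP with naïve rats addresses what differed in the ganglia after the corticospinal lesion and the control vector. In naïve rats 1 to 6, rno-miR-26b-5p was at 4389, 3727, 3606, 3964, 4038 and 5152 CPM, a mean of 4146 ± 563 (SD, n = 6). In bPYX+GFP rats 1 to 6 it was at 4389, 4598, 5260, 4614, 4992 and 4474 CPM, a mean of 4721 ± 335. All 6 bPYX+GFP rats were above the naïve mean, but naïve replicate 6 was higher than 5 of them, and the groups overlapped.

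By edgeR's quasi-likelihood test, the log2 fold change of rno-miR-26b-5p in bPYX+GFP against naïve was 0.19 ± 0.08 (SE; 95% interval 0.01 to 0.37), a fold of 1.14. The unadjusted p was 0.0424 and the edgeR adjusted p was 0.232, so that it passed the study's criterion of an unadjusted p under 0.05 but not the adjusted one. In this comparison 2.41% of the 373 tested miRNAs (9) were called at an adjusted p under 0.05 and 21.2% (79) at an unadjusted p under 0.05, 40 of them higher and 39 lower; the 9 became 22 with DESeq2 and 3 to 20 when 1 library was left out. By p, rno-miR-26b-5p stood at place 68 of 373. Its unadjusted call did not hold without naïve replicate 2 (edgeR unadjusted p = 0.0895), 3 (0.0963), 4 (0.0751) or 5 (0.0731), nor without bPYX+GFP replicate 2 (0.0519), 3 (0.0896), 4 (0.0540) or 5 (0.118). It was also lost with the replicate number as a block (0.0590) and in the fit of all 3 groups (0.0622). Without naïve replicate 6 the log2 fold change was 0.26 (edgeR unadjusted p = 0.00243, adjusted p = 0.0693). Without naïve replicate 1, the rat that the study set aside as an outlier, the log2 fold change was 0.20 (edgeR unadjusted p = 0.0410).

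rno-miR-26b-3p was at 13.7, 15.1, 12.9, 11.8, 13.4 and 20.3 CPM in naïve rats 1 to 6 and at 20.2, 13.5, 15.5, 17.1, 17.1 and 16.6 CPM in bPYX+GFP rats 1 to 6. The means were 14.5 ± 3.01 and 16.7 ± 2.20 CPM (SD, n = 6 each), and the groups overlapped. The log2 fold change was 0.20 ± 0.14 (SE; 95% interval -0.10 to 0.49; edgeR unadjusted p = 0.172, adjusted p = 0.456). Without naïve replicate 6, the highest naïve rat, it was 0.32 (edgeR unadjusted p = 0.0155, adjusted p = 0.148), which passed the unadjusted criterion.

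Setting bPYX+NT3 against bPYX+GFP rats addresses what neurotrophin-3 added in lesioned rats. In bPYX+NT3 rats 1 to 6, rno-miR-26b-5p was at 4966, 4700, 6335, 4378, 5681 and 4972 CPM, a mean of 5172 ± 714 (SD, n = 6). Replicates 3 and 5 were above every bPYX+GFP rat, and replicate 4 was below all of them. The log2 fold change was 0.14 ± 0.10 (SE; 95% interval -0.06 to 0.35), a fold of 1.10 (edgeR unadjusted p = 0.153, adjusted p = 0.668). Without bPYX+NT3 replicate 3, the highest rat, it was 0.05.

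rno-miR-26b-3p was at 18.2, 9.60, 12.7, 17.0, 11.1 and 16.9 CPM in bPYX+NT3 rats 1 to 6, a mean of 14.3 ± 3.60. Its log2 fold change against bPYX+GFP was -0.22 ± 0.16 (SE; 95% interval -0.56 to 0.12; edgeR unadjusted p = 0.188, adjusted p = 0.668). Neither arm passed either criterion. Over all tested miRNAs, 0% were called at an adjusted p under 0.05 (0 with DESeq2 too) and 8.58% (32) at an unadjusted p under 0.05 in edgeR.

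The difference of rno-miR-26b-5p was larger between bPYX+NT3 and naïve rats, the ends of the design. The bPYX+NT3 mean of 5172 CPM and the naïve mean of 4146 CPM gave a log2 fold change of 0.32 ± 0.11 (SE; 95% interval 0.10 to 0.54), a fold of 1.25 with an interval of 1.07 to 1.46. All 6 bPYX+NT3 rats were above the naïve mean, and 5 of the 6 naïve rats were at or below 4389 CPM, but naïve replicate 6 was above 4 of the bPYX+NT3 rats. The edgeR p was 0.00819, place 16 of 373, and the adjusted p was 0.191. It thus passed the unadjusted criterion, as 13.7% of the tested miRNAs (51) did, and not the adjusted one, which 0% did in edgeR (1 with DESeq2). Of the 51, 27 were higher and 24 lower; with library totals as the only scaling, 41 were higher and 13 lower.

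The unadjusted call of rno-miR-26b-5p in this comparison held under all 19 alternatives, with edgeR or DESeq2 p-values from 0.00260 to 0.0213 and log2 fold changes from 0.25 to 0.41. The adjusted p ranged from 0.127 to 0.437. Without naïve replicate 1 the log2 fold change was 0.34. rno-miR-26b-3p, from the same hairpin, had a log2 fold change of -0.03 ± 0.18 (SE; 95% interval -0.40 to 0.35; edgeR unadjusted p = 0.880, adjusted p = 0.955), and its sign turned with library totals as the scaling (0.03). The 3 comparisons share libraries pairwise, so their values for 1 member are not independent of each other.

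**Figure D2:**
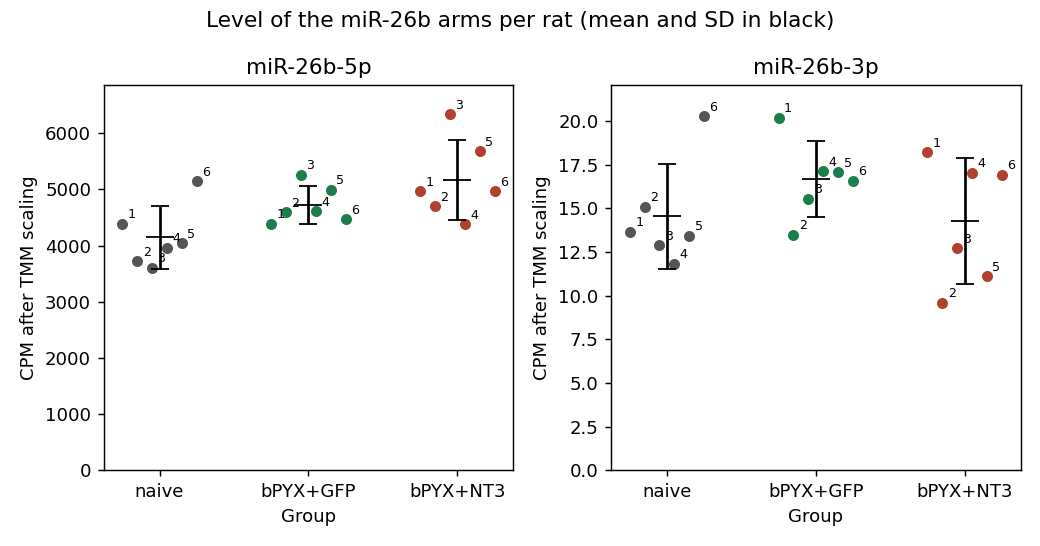
Level of both arms of miR-26b in each rat (vertical axes, CPM after TMM scaling, from 0; dots, rats numbered by replicate; black, mean and SD, n = 6 per group). For miR-26b-5p the group means are 4146, 4721 and 5172 CPM and the ranges overlap; for miR-26b-3p they are 14.5, 16.7 and 14.3 CPM.

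**Figure D3:**
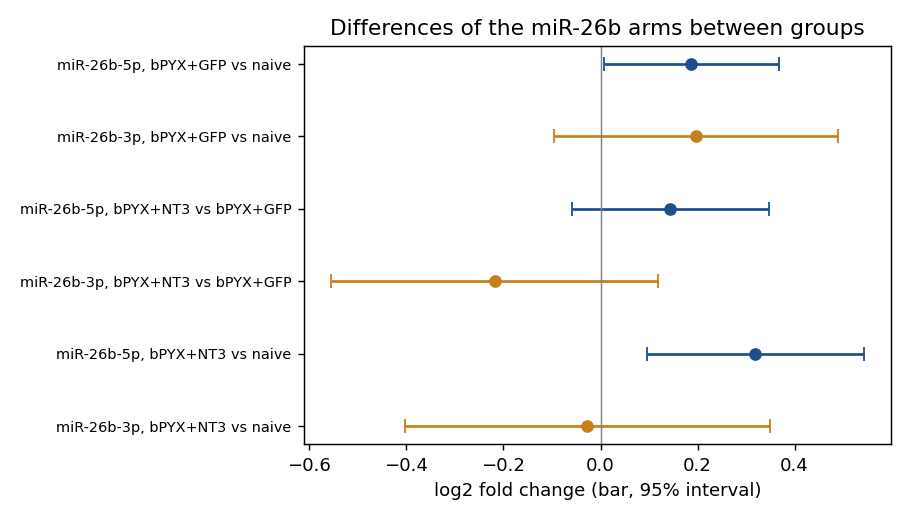
Log2 fold changes of both arms of miR-26b (horizontal axis; dots, edgeR estimates, first named group against second; bars, 95% intervals; blue, 5p; orange, 3p). The intervals of miR-26b-5p against naïve begin at 0.01 and 0.10, and those of the other 4 estimates include 0.

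For size, the median of the log2 fold changes without sign over the 373 tested miRNAs was 0.14 in bPYX+GFP against naïve, 0.12 in bPYX+NT3 against bPYX+GFP and 0.13 in bPYX+NT3 against naïve. The changes of rno-miR-26b-5p, at 0.19, 0.14 and 0.32, were at or above these medians. The median with sign lay between -0.01 and 0.00 in each comparison. With scaling by library totals only, it was 0.02, 0.03 and 0.05.

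The arms are cut from 1 hairpin together, and the ratio of their reads needs no scaling between libraries. The 5p arm of miR-26b outnumbered the 3p arm 310.8 to 1 over all counts. The precursors compared were 171, each with counts of both arms, and miR-26a was not among them. Of these 171, 77.2% were less unequal between arms, 38 were more so, and the median was 21.3 to 1. For miR-26a the few counts were 49 of the 5p and 42 of the 3p arm.

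In naïve rats 1 to 6 there were 321, 247, 280, 335, 301 and 254 counts of rno-miR-26b-5p per count of rno-miR-26b-3p. In bPYX+GFP rats 1 to 6 the ratios were 217, 341, 338, 269, 292 and 270. In bPYX+NT3 rats 1 to 6 they were 272, 489, 498, 257, 512 and 294. bPYX+NT3 replicates 2, 3 and 5 were above all of the other 15 libraries, and replicates 1, 4 and 6 lay among them. The group means were 290 ± 35.7, 288 ± 46.9 and 387 ± 124 (SD, n = 6 each).

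On the scale of log2(3p count / 5p count), the means were -8.17 ± 0.18 (naïve), -8.15 ± 0.24 (bPYX+GFP) and -8.53 ± 0.48 (bPYX+NT3). The differences were 0.02 for bPYX+GFP minus naïve (2-sided exact permutation test, p = 0.903), -0.38 for bPYX+NT3 minus bPYX+GFP (exact permutation p = 0.113) and -0.36 for bPYX+NT3 minus naïve (exact permutation p = 0.134). After Benjamini-Hochberg adjustment over the 9 exact tests of the family, these were 0.903, 0.302 and 0.302. No test of the arm ratio passed at an adjusted p under 0.05, and the rats of the bPYX+NT3 group were the most spread.

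**Figure D4:**
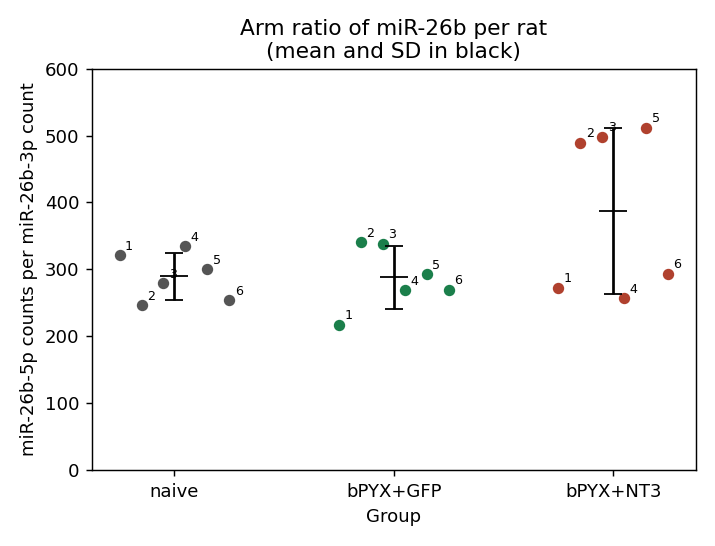
Counts of miR-26b-5p per count of miR-26b-3p in each rat (vertical axis, from 0; dots, rats numbered by replicate; black, mean and SD, n = 6 per group). bPYX+NT3 replicates 2, 3 and 5 lie at 489, 498 and 512, and the highest of the other 15 libraries lies at 341.

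Both miR-26a rows were at the edge of detection. rno-miR-26a-5p had 1, 5, 3, 1, 1 and 8 counts in naïve rats 1 to 6, then 3, 1, 0, 2, 10 and 1 counts in bPYX+GFP rats and 2, 2, 3, 1, 3 and 2 counts in bPYX+NT3 rats. The mean levels were 0.695, 0.597 and 0.471 CPM. No group difference was detectable at this depth: -0.0975 CPM for bPYX+GFP minus naïve (exact permutation p = 0.846), -0.126 CPM for bPYX+NT3 minus bPYX+GFP (exact permutation p = 0.903) and -0.224 CPM for bPYX+NT3 minus naïve (exact permutation p = 0.446). The smallest adjusted p of these 3 was 0.803. Without naïve replicate 6, which had 8 counts, the last difference was -0.0313 CPM (exact permutation p = 0.911).

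rno-miR-26a-3p had 2, 2, 3, 2, 0 and 7 counts in naïve rats 1 to 6, then 2, 5, 5, 4, 2 and 1 counts in bPYX+GFP rats and 1, 0, 1, 1, 3 and 1 counts in bPYX+NT3 rats. The group sums were 16, 19 and 7 counts. The difference of bPYX+NT3 minus bPYX+GFP was -0.396 CPM, and 0 of 6 bPYX+NT3 rats were above the bPYX+GFP mean (exact permutation p = 0.0303, adjusted p = 0.273). The unadjusted p was 0.05 or higher without bPYX+GFP replicate 2 or without any of bPYX+NT3 replicates 1, 2, 3, 4 and 6 (exact permutation p from 0.0563 to 0.0714). The other differences were 0.0677 CPM for bPYX+GFP minus naïve (exact permutation p = 0.788, adjusted p = 0.903) and -0.329 CPM for bPYX+NT3 minus naïve (exact permutation p = 0.123, adjusted p = 0.302). The last was -0.154 CPM without naïve replicate 6, which had 7 counts (exact permutation p = 0.262), and -0.444 CPM without naïve replicate 5, which had 0 (exact permutation p = 0.0108, adjusted p = 0.0974). None passed at an adjusted p under 0.05.

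A mature miRNA that is encoded by several hairpins gives reads that fit several places, and such reads can be set aside for low alignment quality. Of the 753 rows, 688 matched a RefSeq mature sequence and 638 were found in a hairpin of that table. Of the 36 rows found in 2 or more hairpins, 20 (55.6%) had a mean count under 10 and the median mean count was 1.53. Of the 602 rows found in 1 hairpin, 294 (48.8%) had a mean count under 10 and the median was 11.5. The rows in several hairpins ranged from 0, as for rno-miR-29b-3p and rno-miR-9a-3p, to mean counts of 12153 for rno-let-7c-5p and 38200 for rno-miR-128-3p. In this reference rno-miR-26a-5p is among the rows with 1 hairpin. Whether reads of miR-26a were among those set aside was not tested.

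The miRNAs whose level varied most like that of rno-miR-26b-5p over the 18 libraries were sought among the other 372 tested ones, by Pearson's r of log2 CPM. The 5 highest were rno-let-7i-3p (r = 0.81), rno-miR-137-3p (0.80), rno-miR-16-5p (0.79), rno-miR-328a-3p (0.79) and rno-miR-195-5p (0.77). Spearman's rho for these was 0.71, 0.64, 0.73, 0.77 and 0.72. With the group means removed, r was 0.74, 0.72, 0.77, 0.71 and 0.67, so the likeness was also present between rats within groups. Without the rats farthest from the median, bPYX+NT3 replicate 3 and naïve replicate 3, r was 0.73, 0.63, 0.61, 0.71 and 0.53. The lowest r was that of rno-miR-493-3p (r = -0.87, rho = -0.79, and -0.74 without the same 2 rats). With the group means removed its r was -0.82, at place 371 of 372.

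The other arm of the same hairpin was not among these. For rno-miR-26b-3p, r was 0.03, rho was 0.11, and it stood at place 161 of 372. The median r over the 372 was -0.05, and 37 had an r over 0.5. These correlations are descriptions: the points share the library, its depth and its scaling, and no p is given. Of the 5 highest, 2 stayed among the 5 highest by Spearman's rho, and 2 did with the group means removed.

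**Figure D5:**
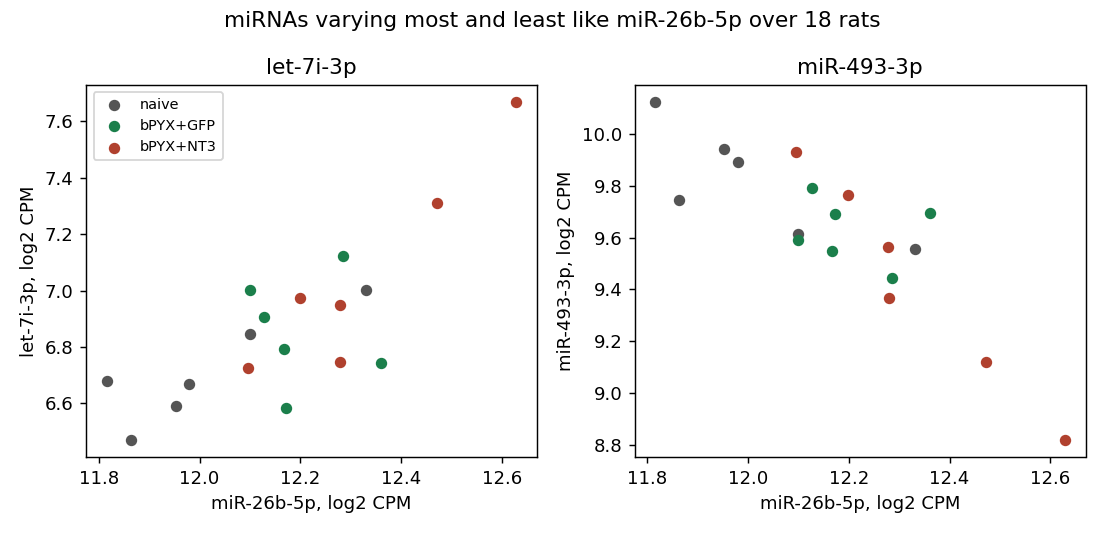
Level of rno-let-7i-3p (left) and rno-miR-493-3p (right) against that of miR-26b-5p in 18 rats (all axes, log2 CPM; dots coloured by group). let-7i-3p is highest (r = 0.81) and miR-493-3p lowest (r = -0.87) in the order of likeness, and bPYX+NT3 replicate 3 is the rightmost dot in both.

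Other miRNAs known to act on the same pathway were counted from lists written with earlier results of these data known. Of 3 miRNAs known to target Ezh2, all were tested. In bPYX+GFP against naïve, 2 of the 3 passed the unadjusted criterion, both higher (21.2% of all tested miRNAs passed it in either direction): rno-miR-101a-3p (log2 fold change 0.21 ± 0.08, edgeR unadjusted p = 0.0212) and rno-miR-101b-3p (0.24 ± 0.08, edgeR unadjusted p = 0.0103). Both are of the miR-101 family by name, so they are not 2 unrelated entries. The third, rno-miR-138-5p, was at 0.01 ± 0.09 (edgeR unadjusted p = 0.932). In bPYX+NT3 against naïve, 2 passed, again both higher (13.7% of all tested miRNAs passed): rno-miR-101b-3p (0.16, edgeR unadjusted p = 0.0351) and rno-miR-138-5p (0.29, edgeR unadjusted p = 0.0336). None passed in bPYX+NT3 against bPYX+GFP. The medians of the list were 0.21, 0.16 and -0.04, where those of all tested miRNAs lay between -0.01 and 0.00.

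Of 4 miRNAs of the REST circuit, which are silenced by REST or act on it, only rno-miR-132-3p was tested, at a mean of 39.1 CPM, and it passed in no comparison. rno-miR-124-3p had 0 to 7 counts per library, rno-miR-9a-5p had 0 to 1 and rno-miR-9a-3p was listed at 0. No member of these lists passed an adjusted p under 0.05 in edgeR in any comparison.

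The tissue label was checked against miRNAs known for their cell type. Of the sensory neuron miRNAs, rno-miR-182 and rno-miR-96-5p were abundant and rno-miR-183-5p was listed at 0. Their summed level was 23640 to 31007 CPM (naïve), 28964 to 33099 CPM (bPYX+GFP) and 25916 to 32954 CPM (bPYX+NT3). By the unadjusted criterion rno-miR-182 was higher than in naïve rats both after bPYX+GFP (log2 fold change 0.20, edgeR unadjusted p = 0.0223) and after bPYX+NT3 (0.19, edgeR unadjusted p = 0.0407), beside rno-miR-26b-5p in the same comparisons, in which 21.2% and 13.7% of all tested miRNAs passed. rno-miR-96-5p did not pass, at log2 fold changes of 0.07 (edgeR unadjusted p = 0.441) and -0.04 (edgeR unadjusted p = 0.692). rno-miR-183-3p, the other arm of the hairpin of rno-miR-183-5p, is on no list and was added after its values were seen. It was at means of 29.9 CPM (naïve), 34.99 CPM (bPYX+GFP) and 35.4 CPM (bPYX+NT3), with log2 fold changes against naïve of 0.23 (edgeR unadjusted p = 0.0327, adjusted p = 0.222) and 0.25 (edgeR unadjusted p = 0.0503, adjusted p = 0.349). The part of sensory neurons in the differences of rno-miR-26b-5p was not tested. All 6 blood and immune miRNAs were tested and none passed in any comparison, with summed levels of 919 to 2736, 1448 to 2997 and 1191 to 2140 CPM. The miRNAs listed for Schwann and satellite glia, rno-miR-338-3p and rno-miR-219a-5p, summed to 0 to 1.53 CPM, and rno-miR-219a-5p is among the rows found in 2 or more hairpins. Further miRNAs linked to glia, on no list and also added after their values were seen, were measured at higher levels. The means in naïve, bPYX+GFP and bPYX+NT3 rats were 8935, 8781 and 7636 CPM for rno-miR-204-5p and 172, 171 and 156 CPM for rno-miR-211-5p, and neither passed the unadjusted criterion in any comparison. rno-miR-204-3p, at 319, 372 and 305.0 CPM, passed it in bPYX+GFP against naïve, with a log2 fold change of 0.22 (edgeR unadjusted p = 0.0496, adjusted p = 0.234), beside rno-miR-26b-5p. rno-miR-219a-1-3p, added in the same way, went the other way in that comparison and did not pass. Its means were 31.5 CPM (naïve) and 25.7 CPM (bPYX+GFP), with a log2 fold change of -0.30 (edgeR unadjusted p = 0.147, adjusted p = 0.406). The part of glia in the difference of rno-miR-26b-5p was not tested either. The liver miRNA rno-miR-122-5p was listed at 0 in every library, as was rno-miR-183-5p, so a value of 0 in this table does not show absence. Of the lists for skeletal muscle (1 of 3 tested), endothelium (1 of 1) and fibroblasts (2 of 2), no tested miRNA passed. Of 2 smooth muscle miRNAs rno-miR-145-5p was lower in bPYX+GFP than in naïve rats (log2 fold change -0.50, edgeR unadjusted p = 0.00279, where 21.2% of all tested miRNAs passed) and higher in bPYX+NT3 than in bPYX+GFP rats (0.40, edgeR unadjusted p = 0.0249, where 8.58% passed). The other, rno-miR-143-3p, had log2 fold changes of 0.01 and -0.00.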

How the data were processed

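Small RNA of 18 rats was measured, 6 in each of 3 groups assigned from the sample labels. The authors trimmed adapters from single-end reads and aligned them with Bowtie2 to Rnor_5.0, and the deposited values are raw HTSeq counts per mature miRNA, with no normalization; tool versions and the miRNA annotation release are not given in the sources used here. Totals for reads not assigned to a miRNA did not enter library sizes or any test: no feature (3.20% of reads), ambiguous (3.26%), too low alignment quality (31.4%) and not aligned (27.2%). Setting aside reads of low alignment quality can lower the counts of sequences with several copies in the genome.

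For every comparison, edgeR 4.0.16 (R 4.3.3) was run with the 12 libraries concerned (TMM, quasi-likelihood F test, group as the only term), for miRNAs with more than 10 counts in at least 6 of 18 libraries, with Benjamini-Hochberg adjustment over 373. SEs came from the F statistic. The miR-26a rows, which failed the filter, and the arm ratio were tested by 2-sided exact permutation over 924 assignments, 9 tests in all. Correlations used log2 CPM with 0.5 added to each count. The main edgeR test was checked on simulated counts, with changes larger than those of the tested members. That check required recovery and the right sign and set no limit on false calls. The exact permutation test was checked on a small worked example only. For replicate pairs the lowest chi-square per degree of freedom was 37.3, so each library counted once. The file's header shows that the rat the study excluded is naïve replicate 1; it was kept here. Alternatives were other size factors, library totals, no filter, the likelihood ratio test, DESeq2 1.42.0, a 3-group fit, leave-one-out fits, and a block for the replicate number. No alternative was added later.

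The rule for members, the lists and the tests were chosen with earlier results of these data known. Besides the members, the rule named the 5 miRNAs of highest and the 1 of lowest Pearson's r with rno-miR-26b-5p, the 2 rows on either side of each tested member by mean CPM, list members, and at most 4 miRNAs found in several hairpins. A further list is not reported here. The sequences were RefSeq's (GRCr8), matched by name.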

Additional observations from a re-analysis of the deposited data

Results flagged for a closer look

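Among 18 sets of 6 libraries (6 measures in 3 groups), 2 had a library whose gap to the next exceeded Dixon's 95% limit, where chance gives about 0.9 (1 in 20). rno-miR-26a-5p was at 2.03 CPM in bPYX+GFP replicate 5, which is 10 counts, and the next bPYX+GFP rat was at 0.651 CPM; without it, the difference between bPYX+NT3 and bPYX+GFP was 0.161 CPM in place of -0.126 CPM. The total of miRNA counts in bPYX+GFP replicate 3 was 6919863, and the next bPYX+GFP library had 4659143; without it, the log2 fold change of rno-miR-26b-5p in bPYX+GFP against naïve was 0.16 (edgeR unadjusted p = 0.0896).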

How the results depend on the processing

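The miR-26a rows were at the edge of detection, where 3 counts equal 0.476 to 0.763 CPM. No member passed an adjusted p under 0.05 under any alternative. In bPYX+GFP against naïve, the 9 adjusted calls became 22 with DESeq2 and 3 to 20 with single libraries left out (20 without naïve replicate 2; 4 without naïve replicate 3 or bPYX+GFP replicate 5; 3 without naïve replicate 4 or bPYX+GFP replicate 1; 5 without bPYX+GFP replicate 4). In bPYX+NT3 against bPYX+GFP, the 32 unadjusted calls became 54 without a filter and 24 to 54 with single libraries left out (54 without bPYX+NT3 replicate 4). In bPYX+NT3 against naïve, the 0 adjusted calls became 1 with the likelihood ratio test, DESeq2 or the 3-group fit, and 0 to 4 with single libraries left out (4 without bPYX+NT3 replicate 4, 1 without bPYX+NT3 replicate 1). The 51 unadjusted calls there became 75 without a filter and 32 to 68 with single libraries left out (32 without bPYX+NT3 replicate 3). The log2 fold change of rno-miR-26b-3p in bPYX+NT3 against naïve reversed to 0.0289 with library totals and ran from -0.0838 to 0.104 with single libraries left out. With single libraries left out, differences near 0 changed sign: rno-miR-26a-3p in bPYX+GFP minus naïve (-0.0473 to 0.242 CPM), rno-miR-26a-5p in bPYX+GFP minus naïve (-0.385 to 0.0947 CPM) and in bPYX+NT3 minus bPYX+GFP (-0.245 to 0.161 CPM), and the log2 arm ratio in bPYX+GFP minus naïve (-0.0625 to 0.0672). For these changes the cause was not tested. The log2 fold change of rno-miR-26b-5p ran from 0.15 to 0.26 in bPYX+GFP against naïve (edgeR unadjusted p = 0.0622 in the 3-group fit) and from 0.05 to 0.19 in bPYX+NT3 against bPYX+GFP.

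Replicate numbers did not pair the rats: deviations of same-numbered rats had median correlations of 0.00207, 0.0879 and 0.0371 in the 3 comparisons, with lowest values of -0.207, -0.161 and -0.359, and 3, 4 and 2 of 12 libraries correlated best with their own number. With the replicate number as a block, adjusted calls numbered 7, 0 and 0 and unadjusted calls 76, 39 and 48. In the block fit the log2 fold changes of rno-miR-26b-5p were 0.20, 0.13 and 0.32 (edgeR adjusted p = 0.252, 0.588 and 0.334) and those of rno-miR-26b-3p 0.21, -0.24 and -0.04. The block changed no adjusted call of a member, and rno-miR-26b-5p in bPYX+GFP against naïve had an unadjusted edgeR p of 0.0590 with it.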
